A study of Homo sapiens with 9 samples.

Results

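The genes encoded by the human mitochondrial genome were taken as every row of the deposited count table whose symbol begins with MT-. The rule gave 37 of the 64253 genes in the table, made up of 13 protein-coding genes, 2 ribosomal RNA (rRNA) genes and 22 transfer RNA (tRNA) genes. RNA was sequenced from 9 cultures labelled as EPC2, a human line of normal squamous cells of the esophagus, grown in keratinocyte medium. There were 3 libraries of cells that received a FOXF1 plasmid with Lipofectamine 2000, a lipid mixture that helps DNA enter cells. A further 3 libraries came from cells given an empty vector with the same reagent, and the remaining 3 came from untreated cells, which the growth protocol calls mock untreated. FOXF1 is a forkhead transcription factor. All 3 groups share 1 cell line, and the design calls them biological triplicates. A short treatment label names the empty vector group only by the reagent, while the design text names the vector too. The labels give no time between transfection and harvest.

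Library totals ranged from 34390666 to 39973289 counts. FOXF1 had 141 to 367 counts in the FOXF1 plasmid libraries, 0 to 6 in the empty vector libraries and 0 to 1 in the untreated libraries. Most markers of squamous keratinocytes went against the label in all 9 libraries. TP63, the transcription factor of basal squamous cells, had 0 counts, KRT5 had 8 to 19 counts and KRT14 had 0 to 4 counts per library. DSG3, KRT13, KRT4, IVL and SPRR1B had at most 4 counts in any library, whereas ITGB4, an integrin of basal epithelial cells that other cells express as well, had 2287 to 3395. KRT8, a keratin of simple epithelia, had 49954 to 56354 counts, and KRT7, KRT18 and KRT19 had at least 5097 per library. The other markers of simple epithelia were lower, with 294 to 492 counts for CDH1, 150 to 224 for EPCAM and 0 to 1 for CDX2. VIM, an intermediate filament gene of mesenchymal cells, had 28562 to 34612 counts. Of the other mesenchymal markers, COL1A1 had 39148 to 64090, THY1 32061 to 35594, PDGFRB 1239 to 2432 and COL1A2 0. The immune marker PTPRC had 0 counts. The cells are therefore called by their label only.

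The human mitochondrial genome is a small circle that is transcribed almost whole from each of its strands, into long precursors that are cut mostly at the tRNAs between the genes. Most genes are read from the heavy strand, which codes for both rRNAs, most of the tRNAs and every mRNA but MT-ND6. The mRNAs code for core subunits of respiratory complexes I, III and IV and of the ATP synthase (complex V), while all their partner subunits, and all of complex II, are encoded in the nucleus. Mitochondrial mRNAs carry short poly(A) tails, except that MT-ND6 is known to have little or none, and mature tRNAs have none. The libraries were made with a kit that selects poly(A) RNA and keeps the strand, so counts of MT-ND6 and of tRNAs are those of transcripts that passed such a selection.

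Neighbouring genes on this genome touch or overlap, and the overlaps are shown first because reads that cover them belong to more than 1 gene. MT-ATP8 and MT-ATP6, which code for subunits of the ATP synthase, share 46 bases of a single mRNA, and MT-ND4L and MT-ND4, which code for subunits of complex I, share 7 bases of another. MT-TI and MT-TQ, the tRNAs for isoleucine and glutamine, share 3 bases on opposite strands. The sequences are from GENCODE release 29 on GRCh38, written in the sense of the transcript, and capitals mark the shared bases. They cover chrM:8512-8587 (plus strand), chrM:10745-10781 (plus strand), chrM:4263-4331 (plus strand) and chrM:4329-4400 (minus strand).
MT-ATP8 and MT-ATP6: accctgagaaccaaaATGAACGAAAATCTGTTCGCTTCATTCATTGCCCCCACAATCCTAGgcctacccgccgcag
MT-ND4L and MT-ND4: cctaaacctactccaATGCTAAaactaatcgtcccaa
MT-TI: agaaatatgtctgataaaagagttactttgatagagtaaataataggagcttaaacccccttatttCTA
MT-TQ: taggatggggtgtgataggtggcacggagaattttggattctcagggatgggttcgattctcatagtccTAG
The shared stretch of the first pair begins with the start codon of MT-ATP6 and ends with the stop codon of MT-ATP8. In the second pair the 7 bases hold the start of MT-ND4 and the stop of MT-ND4L. How reads in shared bases were assigned, and whether counting used the strand, were not found in the labels. Values of the partners in each pair are therefore not independent, and reads of a gene and of a transcript antisense to it may not have been told apart.

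Of the 37 genes, 26 had enough reads to be tested: 13 mRNAs, 2 rRNAs and 11 of the 22 tRNAs. Together the 37 genes took 13.9%, 14.7% and 13.7% of counts in the FOXF1 plasmid libraries, 11.7%, 10.3% and 11.7% in the empty vector libraries, and 22.4%, 21.6% and 18.6% in the untreated libraries. None of the 3 groups overlapped with another in this share, and the untreated libraries were highest. The group means were 14.1% ± 0.517 for the FOXF1 plasmid, 11.2% ± 0.761 for the empty vector and 20.9% ± 2.0 for untreated cells (SD, n = 3 each). In RNA from whole cultures, fewer cells of a type and less RNA per cell cannot be told apart, and the same holds for fewer mitochondrial genomes and less RNA per genome.

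**Figure D1:**
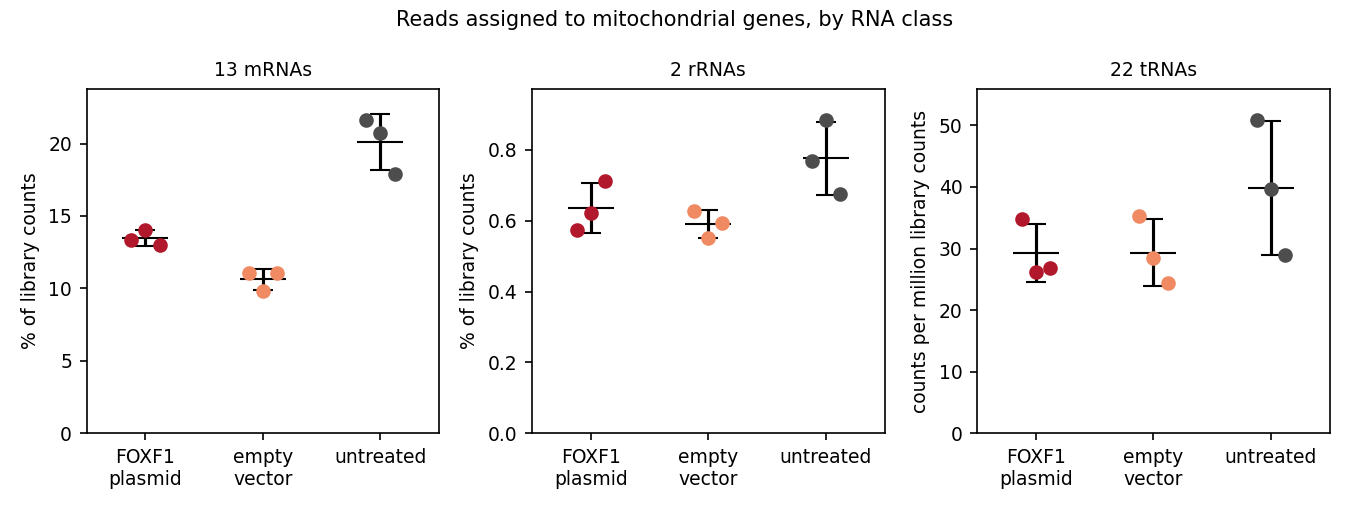
Percent of library counts in the 13 mRNAs and 2 rRNAs, and counts per 1000000 library counts in the 22 tRNAs, for each library (points), with the group mean and SD (bars) for the FOXF1 plasmid, empty vector and untreated groups. The mRNAs held most of the reads, with group means of 13.5%, 10.6% and 20.1%, against 0.637%, 0.591% and 0.776% for the rRNAs.

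Levels are given as CPM, counts scaled to 1000000 per library, on library sizes scaled by TMM factors, and divided by gene length in kilobases where genes are compared. MT-CO2, which codes for a core subunit of cytochrome oxidase (complex IV), had the highest level per kilobase in every group, at 40705 ± 643 CPM per kb with the FOXF1 plasmid, 31140 ± 4198 with the empty vector and 77446 ± 14063 in untreated cells (SD, n = 3 each). MT-CO3 of the same complex came next in each group by its mean, although its range overlapped that of the gene after it in all 3 groups. At the low end the order was the same in all 3 groups, with MT-ND3, MT-RNR2, MT-ND5, MT-RNR1 and MT-ND6 in falling order and no overlap between neighbours. MT-ND6 had 223 ± 89.9 CPM per kb with the FOXF1 plasmid, 281 ± 73.6 with the empty vector and 326 ± 107 in untreated cells. The order of the 2 rRNAs among the mRNAs is that of poly(A)-selected RNA.

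**Figure D2:**
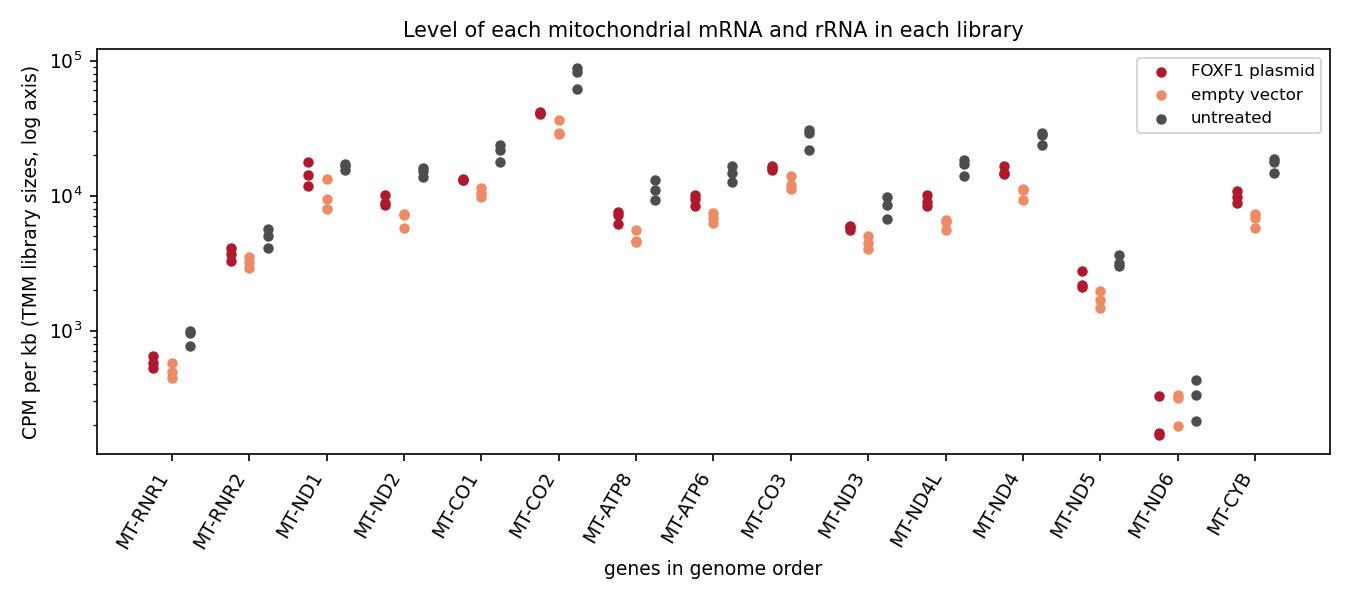
CPM per kb on TMM-scaled library sizes (log axis) of the 13 mRNAs and 2 rRNAs in genome order, with a point for each of 3 libraries in the FOXF1 plasmid, empty vector and untreated groups. MT-CO2 was highest at group means of 40705, 31140 and 77446 CPM per kb and MT-ND6 lowest, and the untreated libraries lay above the others for most genes.

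With the FOXF1 plasmid relative to the empty vector, 4 of the 26 mitochondrial genes tested rose: MT-CYB, MT-ND4L, MT-ND4 and MT-ATP8, all mRNAs read from the heavy strand. A gene was called where the edgeR quasi-likelihood test gave an adjusted p below 0.05 over 16366 genes, and 0.055% of all tested genes were called higher in this comparison. The 9 genes so called were FOXF1 itself, PRAF2, the 4 mitochondrial mRNAs and 3 nuclear pseudogenes of mitochondrial genes. All 12 heavy-strand mRNAs had a positive log2 fold change, with a median of 0.45 beside -0.01 for all tested genes, and unadjusted p-values at or below 0.00185 by the edgeR test. Of all tested genes, 5.09% were higher with an unadjusted p under 0.05. The 12 share a strand and the same libraries, so they are not 12 separate results. In 11 of the 12, all but MT-ND1, every FOXF1 plasmid library lay above every empty vector library, as 7.33% of all tested genes did. No mitochondrial gene was called lower by edgeR, DESeq2 or limma-voom, and 1, MT-TP, had an unadjusted p under 0.05 and a negative fold change. No gene in the table was called lower by edgeR (0%). The number of calls turned on single libraries: leaving out empty vector replicate 2 or FOXF1 plasmid replicate 2 left 0 mitochondrial genes called, leaving out untreated replicate 1 or 3 gave 7, and leaving out empty vector replicate 1 gave 11. The share of all tested genes called in such fits is not given here. The log2 fold changes stayed positive in all 9 of these fits, from 0.48 to 0.64 for MT-CYB, 0.45 to 0.59 for MT-ND4, 0.48 to 0.62 for MT-ND4L and 0.44 to 0.60 for MT-ATP8.

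With the empty vector relative to untreated cells, 18 of the 26 genes fell and 0 rose, beside 9.37% of all tested genes called lower and 10.2% called higher by the edgeR test. The 18 were the 12 heavy-strand mRNAs, both rRNAs and 4 tRNAs. The heavy-strand mRNAs had a median log2 fold change of -1.14, from -0.68 for MT-ND1 to -1.41 for MT-ND4L, beside 0.04 for all tested genes. All 12, both rRNAs and 4 tRNAs (MT-TM, MT-TW, MT-TD and MT-TT) had every empty vector library below every untreated library, as 15.3% of all tested genes did. DESeq2 and limma-voom also called no mitochondrial gene higher, and no member had an unadjusted p under 0.05 with a positive fold change. MT-ND6, the light-strand mRNA, had a log2 fold change of -0.21 ± 0.19 and was not called (edgeR adjusted p = 0.481).

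With the FOXF1 plasmid relative to untreated cells, 15 of the 26 genes fell and 0 rose, beside 3.89% of all tested genes called lower and 4.63% called higher by the edgeR test. They were 11 heavy-strand mRNAs, both rRNAs and the tRNAs MT-TQ and MT-TT. The median log2 fold change of the heavy-strand mRNAs was -0.70, beside 0.02 for all tested genes, and MT-CO2 was the lowest of them at -0.93. In 11 of the 12, all but MT-ND1, the 2 groups did not overlap, as 12.6% of all tested genes did in this direction. DESeq2 and limma-voom called no mitochondrial gene higher either, and none had an unadjusted p under 0.05 with a positive fold change. The 3 comparisons share libraries in pairs, so their fold changes are not independent of each other.

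**Figure D3:**
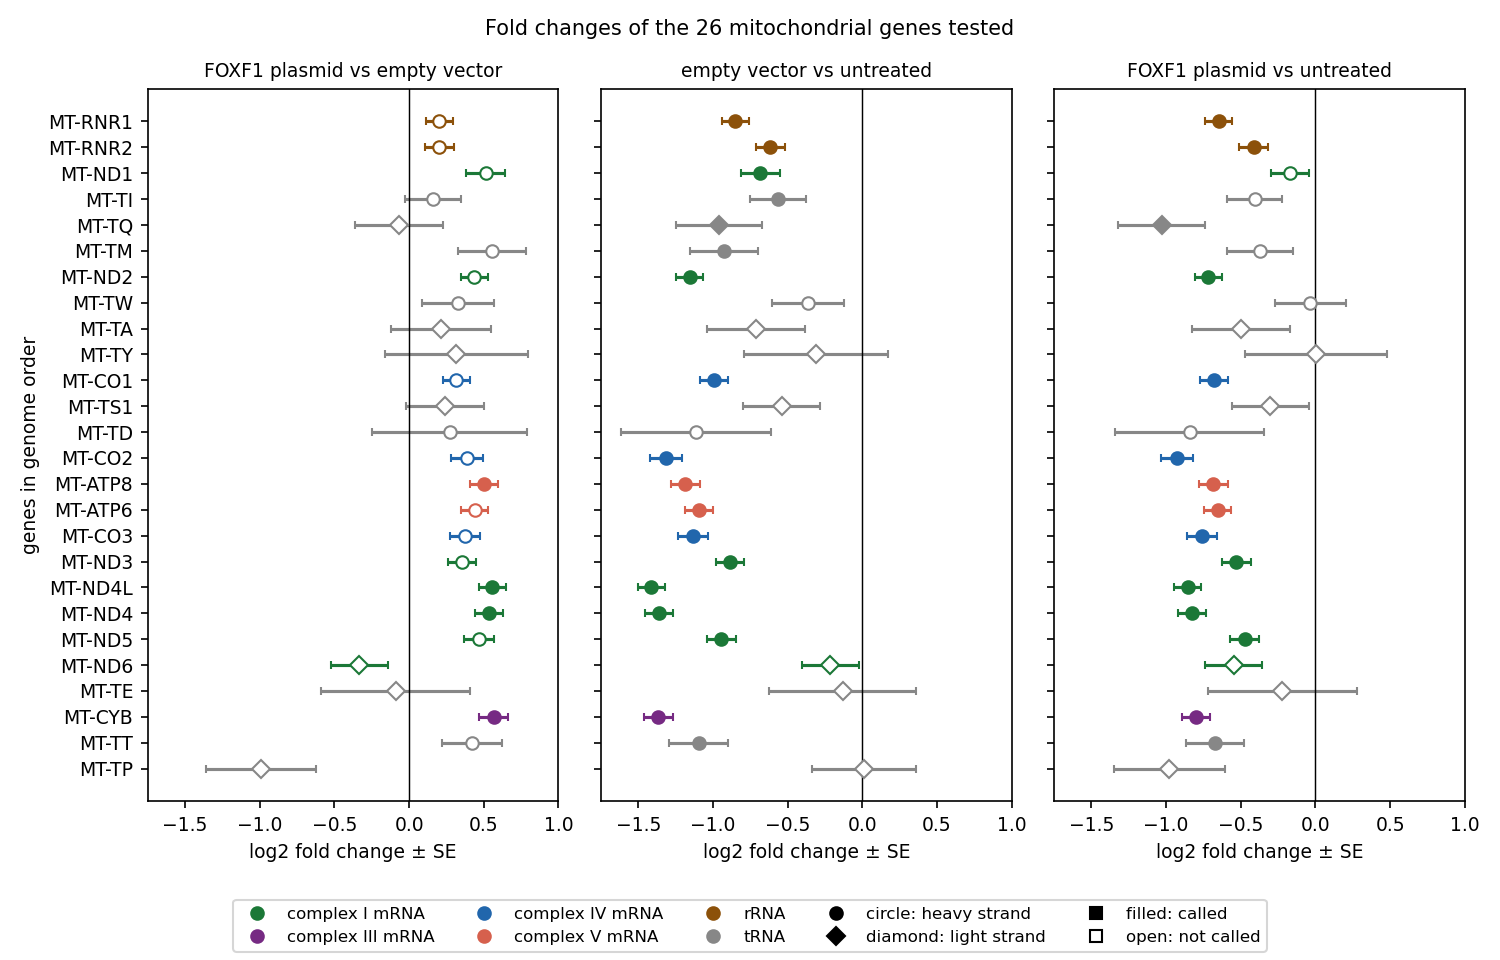
Log2 fold change ± SE (x axis) of the 26 mitochondrial genes tested, in genome order from top to bottom, for the FOXF1 plasmid relative to the empty vector, the empty vector relative to untreated cells and the FOXF1 plasmid relative to untreated cells. Filled symbols passed the edgeR test (4, 18 and 15 genes), circles are heavy-strand and diamonds light-strand genes, and colours give the complex or RNA class.

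MT-CYB codes for cytochrome b, the only mitochondrially encoded subunit of complex III. It had 11192, 12305 and 10095 CPM in the FOXF1 plasmid libraries, 7721, 6614 and 8366 CPM in the empty vector libraries and 21416, 20290 and 16769 CPM in the untreated libraries. The 3 groups did not overlap, with the empty vector lowest and the untreated libraries highest. The log2 fold change was 0.57 ± 0.10 for the FOXF1 plasmid relative to the empty vector (edgeR adjusted p = 0.00573). It was -1.37 ± 0.10 for the empty vector relative to untreated cells (edgeR adjusted p = 3.79e-11) and -0.80 ± 0.10 for the FOXF1 plasmid relative to untreated cells (edgeR adjusted p = 1.28e-06).

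Complex I, which takes electrons from NADH, has 7 mitochondrially encoded subunits. MT-ND4 and MT-ND4L code for proton-pumping membrane subunits of it and lie on 1 mRNA. MT-ND4 had 20292, 22780 and 19819 CPM in the FOXF1 plasmid libraries, 15106, 12741 and 15530 CPM in the empty vector libraries and 40318, 38462 and 32793 CPM in the untreated libraries. Its log2 fold change was 0.54 ± 0.09 for the FOXF1 plasmid relative to the empty vector (edgeR adjusted p = 0.00665), -1.36 ± 0.09 for the empty vector relative to untreated cells (edgeR adjusted p = 1.87e-11) and -0.83 ± 0.09 for the FOXF1 plasmid relative to untreated cells (edgeR adjusted p = 4.17e-07).

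MT-ND4L had 2666, 2973 and 2471 CPM in the FOXF1 plasmid libraries, 1900, 1654 and 1958 CPM in the empty vector libraries and 5440, 5101 and 4129 CPM in the untreated libraries. The 3 groups stood apart in the same order as for MT-ND4. The log2 fold changes were 0.56 ± 0.09 for the FOXF1 plasmid relative to the empty vector, -1.41 ± 0.09 for the empty vector relative to untreated cells and -0.86 ± 0.09 for the FOXF1 plasmid relative to untreated cells, with edgeR adjusted p-values of 0.00452, 4.2e-12 and 1.24e-07. MT-ND2, MT-ND3 and MT-ND5, core membrane subunits as well, fell in both comparisons with untreated cells. Their log2 fold changes were -1.15, -0.89 and -0.94 for the empty vector, against -0.72, -0.53 and -0.47 for the FOXF1 plasmid. For the FOXF1 plasmid relative to the empty vector they were 0.44, 0.36 and 0.47 and missed the threshold (edgeR adjusted p = 0.0541, 0.178 and 0.0643). MT-ND2 was called by DESeq2 (adjusted p = 0.00212), and limma-voom and edgeR with size factors in place of TMM called both MT-ND2 and MT-ND5 (adjusted p = 0.00609 and 0.0218 by limma-voom, 0.0348 and 0.0307 by edgeR).

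MT-ND1, the subunit next to the quinone site of complex I, had 11215, 17025 and 13628 CPM in the FOXF1 plasmid libraries, 8951, 7640 and 12751 CPM in the empty vector libraries and 16418, 14890 and 15807 CPM in the untreated libraries. The FOXF1 plasmid libraries overlapped with both other groups, whereas the empty vector libraries lay below the untreated ones. MT-ND1 fell with the empty vector relative to untreated cells, by 0.68 ± 0.13 on the log2 scale (edgeR adjusted p = 0.000268). The log2 fold change was 0.51 ± 0.13 for the FOXF1 plasmid relative to the empty vector (edgeR adjusted p = 0.162) and -0.17 ± 0.13 against untreated cells (edgeR adjusted p = 0.477), neither of which passed. Relative to the empty vector it passed when replicate 3 of the empty vector or replicate 1 of the FOXF1 plasmid was dropped, at 0.75 and 0.65, and with no filter on low counts, at 0.50 (edgeR adjusted p = 0.00639, 0.0484 and 1.98e-12). Without the filter the fold change hardly moved and the groups still overlapped. The SE taken from the libraries alone was 0.28, so that last p-value understates the spread between libraries.

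Complex IV, cytochrome oxidase, has its catalytic core in MT-CO1, MT-CO2 and MT-CO3. MT-CO1 had 20155, 20220 and 20413 CPM in the FOXF1 plasmid libraries, 17653, 15037 and 16143 CPM in the empty vector libraries and 36487, 33517 and 27266 CPM in the untreated libraries. The FOXF1 plasmid libraries were close together and lay between the other groups. All 3 genes fell in both comparisons with untreated cells, with log2 fold changes of -0.99, -1.31 and -1.13 for the empty vector and -0.68, -0.93 and -0.76 for the FOXF1 plasmid. For the FOXF1 plasmid relative to the empty vector they were 0.32, 0.39 and 0.37 (edgeR adjusted p = 0.249, 0.2 and 0.178) and did not pass.

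The ATP synthase subunits MT-ATP8 and MT-ATP6 form its membrane part with nuclear partners. MT-ATP8 had 1488, 1551 and 1270 CPM in the FOXF1 plasmid libraries, 1143, 942 and 958 CPM in the empty vector libraries and 2709, 2287 and 1922 CPM in the untreated libraries. No 2 groups overlapped. MT-ATP8 rose by 0.50 ± 0.10 on the log2 scale with the FOXF1 plasmid relative to the empty vector (edgeR adjusted p = 0.0244), a call that library-total scaling and DESeq2 did not make. MT-ATP6, on the same mRNA, had a log2 fold change of 0.44 ± 0.09 (edgeR adjusted p = 0.0541), was not called by edgeR and was called by DESeq2 and limma-voom. Both fell with the empty vector relative to untreated cells, with log2 fold changes of -1.19 and -1.09, and also with the FOXF1 plasmid relative to untreated cells, with -0.68 and -0.65.

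The rRNAs are the RNA core of the mitochondrial ribosome, MT-RNR1 of its small subunit and MT-RNR2 of its large one, and lie ahead of MT-ND1 at the start of the heavy-strand transcript. MT-RNR2 had 5084, 5759 and 6399 CPM in the FOXF1 plasmid libraries, 5461, 4497 and 5020 CPM in the empty vector libraries and 7803, 8778 and 6389 CPM in the untreated libraries. The FOXF1 plasmid group overlapped with both others. MT-RNR2 fell by 0.62 ± 0.10 on the log2 scale with the empty vector relative to untreated cells (edgeR adjusted p = 2.84e-05) and by 0.41 ± 0.10 with the FOXF1 plasmid relative to untreated cells (edgeR adjusted p = 0.00571). MT-RNR1 fell by 0.85 ± 0.09 and 0.65 ± 0.09 in the same comparisons (edgeR adjusted p = 6.44e-08 and 1.22e-05). The MT-RNR2 call for the FOXF1 plasmid was lost without untreated replicate 2 (edgeR adjusted p = 0.0744) or FOXF1 plasmid replicate 1 (edgeR adjusted p = 0.0588). Against the empty vector, the FOXF1 plasmid gave 0.20 for each rRNA, without passing (edgeR adjusted p = 0.493 for MT-RNR1 and 0.523 for MT-RNR2). The ratio of MT-RNR2 to MT-RNR1 counts was 10.1, 10.5 and 10.4 with the FOXF1 plasmid, 9.91, 10.6 and 10.7 with the empty vector and 8.46, 9.30 and 8.66 in untreated cells, so that both transfected groups lay above the untreated one.

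To compare members with each other, each count was set against the sum of the 12 heavy-strand mRNA counts of its library. MT-ND6, a membrane subunit of complex I, had 13.3, 6.17 and 7.20 counts per 10000 heavy-strand mRNA counts in the FOXF1 plasmid libraries. It had 16.5, 18.9 and 10.1 in the empty vector libraries and 9.17, 7.68 and 6.0 in the untreated libraries. Every empty vector library lay above every untreated library, while the highest FOXF1 plasmid library lay above the lowest empty vector library. In CPM, MT-ND6 had 171, 87.7 and 91.9 in the FOXF1 plasmid libraries, 174, 165 and 103 in the empty vector libraries and 225, 175 and 113 in the untreated libraries, with all 3 groups overlapping. The log2 fold change in CPM of the FOXF1 plasmid relative to untreated cells was -0.55 ± 0.19 (edgeR adjusted p = 0.0725). It passed when FOXF1 plasmid replicate 1, untreated replicate 3 or empty vector replicate 1 or 3 was left out, at -0.93, -0.78, -0.55 and -0.55. With all libraries it also passed with size factors in place of TMM, in a fit of the compared groups only, with the replicate number as a block and with no filter on low counts (edgeR adjusted p = 0.0339, 0.0214, 0.000232 and 3.25e-14), while DESeq2 and limma-voom did not call it (adjusted p = 0.428 and 0.0917). Relative to the empty vector it was -0.33 ± 0.19 (edgeR adjusted p = 0.608). The SEs taken from the libraries alone were 0.43 relative to untreated cells and 0.39 relative to the empty vector. The low edgeR p-values of MT-ND6 relative to untreated cells therefore understate the spread between libraries.

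An edgeR fit with that sum as the offset gave MT-ND6 a log2 ratio change of 0.99 ± 0.13 for the empty vector relative to untreated cells (edgeR adjusted p = 1.61e-13). The same ratio changed by -0.77 ± 0.13 for the FOXF1 plasmid relative to the empty vector (edgeR adjusted p = 1.13e-05) and by 0.22 ± 0.13 for the FOXF1 plasmid relative to untreated cells (edgeR adjusted p = 0.11). The SE of that fit is pooled over genes and is smaller than the spread of the MT-ND6 ratio between libraries. Taken from the libraries alone, the log2 differences were 0.97 ± 0.33, -0.81 ± 0.43 and 0.16 ± 0.38 (SE, n = 3 each), in the same order. Two-sided exact permutation tests over the libraries gave p = 0.1, 0.2 and 0.8, where 0.1 is the smallest p that 3 against 3 allows. DESeq2 with the same offset gave an adjusted p of 0.0113 for the empty vector relative to untreated cells and 0.0714 for the FOXF1 plasmid relative to the empty vector, so the second call was not kept. The heavy-strand sum itself differed between groups, so most genes of the table passed in this fit. It called 90.6% of all tested genes higher with the empty vector relative to untreated cells, 52.6% lower with the FOXF1 plasmid relative to the empty vector and 76.5% higher with the FOXF1 plasmid relative to untreated cells.

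MT-ND1 made up 8.67%, 11.98% and 10.7% of heavy-strand mRNA counts in the FOXF1 plasmid libraries, 8.48%, 8.75% and 12.5% in the empty vector libraries and 6.69%, 6.53% and 8.39% in the untreated libraries. Both transfected groups lay above the untreated group, by a narrow gap, and overlapped with each other. The ratio fit gave a log2 change of 0.46 ± 0.10 for the empty vector and 0.54 ± 0.10 for the FOXF1 plasmid, each against untreated cells (edgeR adjusted p = 3.59e-06 and 3.26e-07). The SE from the libraries was 0.21 and 0.18 for those differences. MT-RNR2 had log2 ratio changes of 0.55 ± 0.10 and 0.32 ± 0.10 (edgeR adjusted p = 1.76e-07 and 0.00333). MT-ND4L, MT-ND4 and MT-CYB had a lower ratio with the empty vector relative to untreated cells, with log2 ratio changes of -0.24, -0.20 and -0.20 (edgeR adjusted p = 0.0281, 0.0364 and 0.0463), beside 0.0489% of all tested genes called lower in that fit. The heavy-strand sum was itself lower with the empty vector, which left few genes that could be called lower (90.6% were called higher). The 12 heavy-strand mRNAs make up that sum, so lower shares of some go with higher shares of others. MT-ND3 and MT-ND5, which flank MT-ND4L and MT-ND4, had a higher ratio in the same comparison, with log2 ratio changes of 0.29 and 0.22 (edgeR adjusted p = 0.0107 and 0.0441). Across the 12 heavy-strand mRNAs, which come from the same libraries, Spearman's rho of the log2 fold change with the position of the gene was -0.399 for the empty vector relative to untreated cells, 0.448 for the FOXF1 plasmid relative to the empty vector and -0.238 for the FOXF1 plasmid relative to untreated cells.

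**Figure D4:**
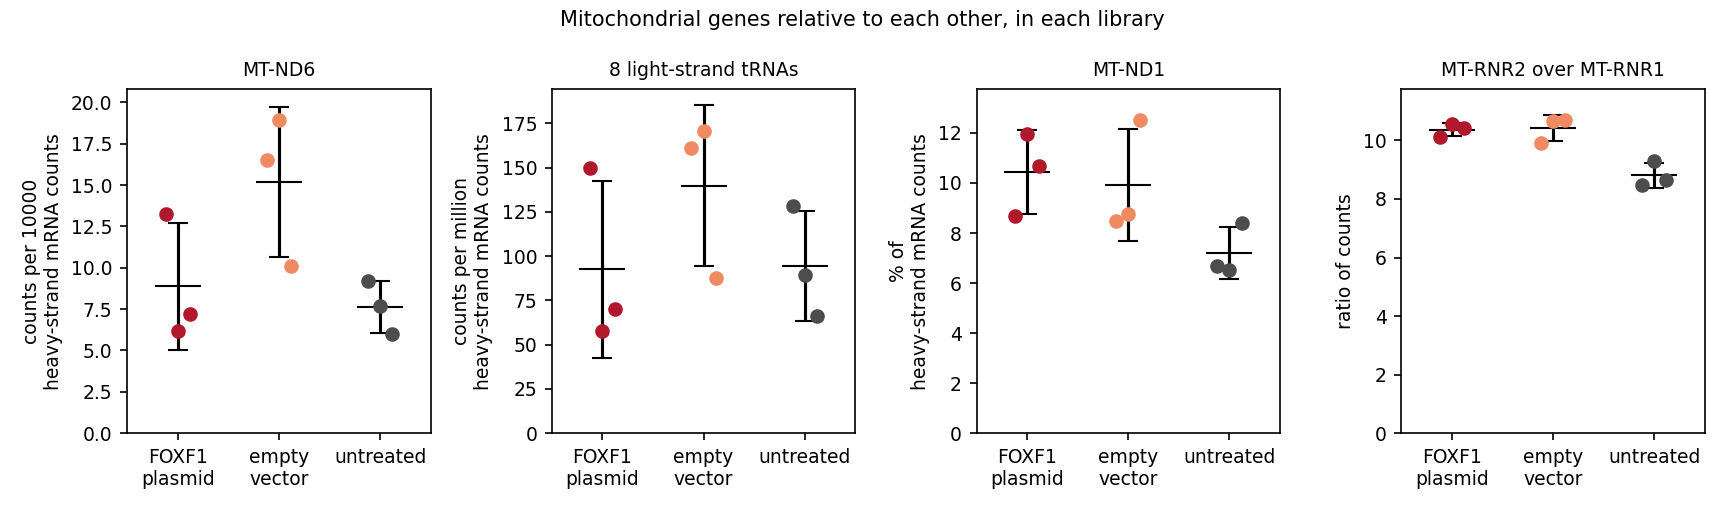
Counts of MT-ND6 per 10000, of the 8 light-strand tRNAs per 1000000 and of MT-ND1 in percent of heavy-strand mRNA counts, and the ratio of MT-RNR2 to MT-RNR1 counts, for each library (points) with the group mean and SD (bars). The MT-ND6 means were 8.88, 15.2 and 7.62 for the FOXF1 plasmid, the empty vector and untreated cells, and 1 FOXF1 plasmid library at 13.3 lay within the range of the empty vector group.

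The 22 tRNAs held 11371 counts over all 9 libraries, of which MT-TQ, MT-TI and MT-TT, the tRNAs for glutamine, isoleucine and threonine, made up 61.2%. Of the 14 heavy-strand tRNAs, 6 had no read in any library (MT-TG, MT-TH, MT-TK, MT-TL2, MT-TR and MT-TS2), where a count of 0 allows up to 0.0751 to 0.0872 CPM per library. MT-TL1, MT-TF, MT-TN, MT-TV and MT-TC had 33, 20, 9, 2 and 1 counts in all and were not tested. 

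MT-TT, next to MT-CYB, had 142, 108 and 163 counts in the FOXF1 plasmid libraries, 115, 111 and 122 in the empty vector libraries and 253, 221 and 154 in the untreated libraries. MT-TT fell by 1.1 ± 0.20 on the log2 scale with the empty vector relative to untreated cells (edgeR adjusted p = 0.000143) and by 0.67 ± 0.19 with the FOXF1 plasmid relative to untreated cells (edgeR adjusted p = 0.0255). MT-TQ, on the light strand, had 421, 124 and 151 counts in the FOXF1 plasmid libraries, 290, 344 and 175 in the empty vector libraries and 649, 435 and 242 in the untreated libraries. It passed in both comparisons with untreated cells, at -0.96 ± 0.29 for the empty vector and -1.03 ± 0.29 for the FOXF1 plasmid (edgeR adjusted p = 0.0168 and 0.0221), although the groups overlapped. The SEs of these differences from the libraries alone were larger, at 0.51 and 0.64. MT-TI and MT-TM, the isoleucine and methionine tRNAs, fell with the empty vector relative to untreated cells as well, with log2 fold changes of -0.56 and -0.93 (edgeR adjusted p = 0.0292 and 0.00357), and the groups overlapped for MT-TI. DESeq2 called neither MT-TI nor MT-TQ for the empty vector (adjusted p = 0.155 and 0.22), nor MT-TQ for the FOXF1 plasmid (adjusted p = 0.256). Scaling by library totals lost MT-TI and MT-TQ for the empty vector (edgeR adjusted p = 0.189 and 0.0992) and MT-TQ and MT-TT for the FOXF1 plasmid (edgeR adjusted p = 0.0833 and 0.0772). Several tRNA calls also turned on single libraries. MT-TI was lost without untreated replicate 1 or 2 or empty vector replicate 2 or 3 (edgeR adjusted p = 0.12, 0.0911, 0.236 and 0.0837), and MT-TQ with the empty vector was lost without untreated replicate 1 or empty vector replicate 3 (edgeR adjusted p = 0.182 and 0.122). With the FOXF1 plasmid, MT-TQ was lost without untreated replicate 1 or FOXF1 plasmid replicate 2 or 3 (edgeR adjusted p = 0.201, 0.129 and 0.164). MT-TT with the FOXF1 plasmid was lost without untreated replicate 1 or 2 or FOXF1 plasmid replicate 1 or 2 (edgeR adjusted p = 0.182, 0.0827, 0.0868 and 0.109).

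MT-TP, the proline tRNA at the start of the light-strand transcript, had 120, 28 and 40 counts in the FOXF1 plasmid libraries, 195, 128 and 87 in the empty vector libraries and 170, 120 and 56 in the untreated libraries. Its log2 fold change was -0.99 ± 0.37 for the FOXF1 plasmid relative to the empty vector and 0.01 ± 0.35 for the empty vector relative to untreated cells, and neither passed (edgeR adjusted p = 0.391 and 0.986). For the FOXF1 plasmid relative to untreated cells it was -0.98 ± 0.37 (edgeR adjusted p = 0.102), and it passed without untreated replicate 3 at -1.32 or without FOXF1 plasmid replicate 1 at -1.77, as well as with the replicate block at -1.04 and with no filter on low counts at -0.99. From the libraries alone, the SEs of the MT-TP differences in these comparisons were larger, at 0.68, 0.60 and 0.74 in the order given. The 8 light-strand tRNAs together had 150, 57.8 and 70.0 counts per 1000000 heavy-strand mRNA counts in the FOXF1 plasmid libraries, 161, 171 and 87.8 in the empty vector libraries and 128, 89.1 and 66.3 in the untreated libraries. FOXF1 plasmid replicate 1 was the highest library of its group and empty vector replicate 3 the lowest of its group, as for MT-ND6.

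The remaining 6 tested tRNAs passed in none of the 3 comparisons with all libraries. Without untreated replicate 3, MT-TA passed as lower with the empty vector relative to untreated cells (edgeR adjusted p = 0.0421). MT-TW and MT-TD, the heavy-strand tRNAs for tryptophan and aspartate, had log2 fold changes of -0.36 ± 0.24 and -1.11 ± 0.50 for the empty vector relative to untreated cells (edgeR adjusted p = 0.318 and 0.121). The light-strand tRNAs MT-TA, MT-TY, MT-TS1 and MT-TE, which carry alanine, tyrosine, serine and glutamate, had -0.71 ± 0.33, -0.31 ± 0.48, -0.54 ± 0.26 and -0.13 ± 0.49 there (edgeR adjusted p = 0.134, 0.715, 0.151 and 0.895), and their groups overlapped. For the FOXF1 plasmid relative to untreated cells the log2 fold changes of MT-TW, MT-TD, MT-TA, MT-TY, MT-TS1 and MT-TE were -0.03, -0.84, -0.50, 0.01, -0.30 and -0.22.

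Because MT-ND6, the rRNAs and the tRNAs reach a poly(A) library only in part, nuclear transcripts listed as lacking a poly(A) tail were set beside them. Of the 22 listed, mostly replication-dependent histone genes and small structural RNAs, 6 had no read, 18 stayed below 1 CPM in every library and 5 could be tested. Their summed level was 4.81, 4.51 and 4.09 CPM of library totals in the FOXF1 plasmid libraries, 3.64, 3.18 and 4.96 in the empty vector libraries and 5.78, 6.01 and 5.71 in the untreated libraries. The untreated libraries were highest, as for the mitochondrial mRNAs, and 1 of the 5, HIST1H2BK, fell with the empty vector relative to untreated cells by 0.85 ± 0.27 on the log2 scale (edgeR adjusted p = 0.0261). The 5 had log2 fold changes from -1.0 to -0.40 in that comparison, with a median of -0.77, and 0 of them were called under scaling by library totals. These 5 are the ones with enough reads after poly(A) selection, and HIST1H2BK had the most counts of the 22, 510 in all. RN7SL1, RMRP and TERC had 0. Whether the 5 lack a tail in these cells was not tested, so they may not stand for RNA without a tail. The part of poly(A) selection in the mitochondrial results was not tested.

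Some mitochondrial mRNAs end without a whole stop codon in the gene, and the first bases of the poly(A) tail complete it. The last bases of genes of each kind are printed to show this, from GENCODE release 29 on GRCh38 in the sense of the transcript, with capitals for the bases of the stop codon that the gene holds and, for MT-ND6, for its stop codon AGG.
MT-ND1: ccccctcaaaccTA
MT-ND4: gggttttcctctT
MT-CYB: ctcaaatgggccT
MT-CO2: gtatttaccctaTAG
MT-ND6: gctcgggggaatAGG
MT-ND1 holds TA, and MT-ND4 and MT-CYB hold T. The 6 mRNAs with a partial stop codon had a median log2 fold change of -1.14 for the empty vector relative to untreated cells, as did the 6 other heavy-strand mRNAs. For the FOXF1 plasmid relative to the empty vector the medians were 0.47 and 0.45. MT-ND6 is also set apart in base composition, with 35.6% G and 7.05% C in its mRNA, against 6.28% to 16.2% G and 29.5% to 35.98% C in the other mRNAs.

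Nuclear copies of mitochondrial sequence can share reads with the genes. The table holds 393 identifiers of such pseudogenes, of which 36 had reads, and these came to between 1.00% and 1.29% of the mitochondrial counts of a library. MTATP6P1, on chromosome 1, is 98.53% identical to MT-ATP6 and held 14.9% as many counts. Its log2 fold changes were 0.58 for the FOXF1 plasmid relative to the empty vector, -1.23 for the empty vector relative to untreated cells and -0.65 for the FOXF1 plasmid relative to untreated cells, beside 0.44, -1.09 and -0.65 for MT-ATP6. MTCO3P12, MTCO1P12 and MTCO2P12, named through their gene identifiers, are 98.17%, 98.7% and 98.24% identical to MT-CO3, MT-CO1 and MT-CO2 and were not called for the FOXF1 plasmid relative to the empty vector, at 0.48, 0.47 and 0.54 (edgeR adjusted p = 0.18, 0.0774 and 0.166). MTND2P28 (98.37% identical to MT-ND2) and MTND4P12 (95.78% identical to MT-ND4) were the other 2 pseudogenes called higher with the FOXF1 plasmid relative to the empty vector, at 0.55 and 0.81 (edgeR adjusted p = 0.00573 and 0.00126). Adding pseudogene counts to the parent genes left 4 genes called in that comparison, the same 4 mRNAs.

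The nuclear genes that maintain mitochondrial DNA or transcribe and process mitochondrial RNA were tested on TMM-scaled library sizes. Of 53 such genes tested, 0 rose and 0 fell with the FOXF1 plasmid relative to the empty vector by edgeR, DESeq2 or limma-voom, and 1 higher and 2 lower had an unadjusted p under 0.05 by edgeR. With the empty vector relative to untreated cells 1 rose and 6 fell, beside 10.2% of all tested genes called higher and 9.37% lower. With the FOXF1 plasmid relative to untreated cells 0 rose and 1 fell, beside 4.63% and 3.89%. Their median log2 fold changes were -0.08, 0.03 and -0.04 in the 3 comparisons. Scaling by library totals, which moves the median of all genes to 0.29 for the empty vector relative to untreated cells, gave 25 higher and 0 lower there, and 3 higher and 0 lower for the FOXF1 plasmid relative to untreated cells. The share of all tested genes called under library totals is not given here, so these counts cannot be set against it.

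POLRMT, the mitochondrial RNA polymerase, had 162 ± 6.95 CPM with the FOXF1 plasmid, 153 ± 6.86 CPM with the empty vector and 192 ± 14.4 CPM in untreated cells (SD, n = 3 each). It fell by 0.33 ± 0.07 on the log2 scale with the empty vector relative to untreated cells (edgeR adjusted p = 0.000499) and by 0.25 ± 0.07 with the FOXF1 plasmid relative to untreated cells (edgeR adjusted p = 0.0158). SLIRP, which binds and stabilises mitochondrial mRNAs together with LRPPRC, fell by 0.37 ± 0.09 with the empty vector relative to untreated cells (edgeR adjusted p = 0.00264). LRPPRC itself had a log2 fold change of 0.10 ± 0.09 there and was not called (edgeR adjusted p = 0.501). TBRG4, ENDOG, RPUSD3 and HSD17B10 fell too, by 0.30, 0.32, 0.23 and 0.21 on the log2 scale, and ANGEL2 rose by 0.45 (edgeR adjusted p = 0.0389). All the falls named here turn on the scaling, since under library totals 0 factors were called lower in either comparison with untreated cells. The POLRMT call for the FOXF1 plasmid was lost without untreated replicate 1 or FOXF1 plasmid replicate 3 (edgeR adjusted p = 0.115 and 0.105). For the empty vector, ENDOG was lost without untreated replicate 1, HSD17B10 without empty vector replicate 2, RPUSD3 without empty vector replicate 3, and ANGEL2 without any 1 of untreated replicates 1 and 3 and empty vector replicates 2 and 3.

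The other factors picked for naming were not called for the empty vector relative to untreated cells. TFAM, which packages mitochondrial DNA and starts its transcription, had a log2 fold change of 0.41 ± 0.17 (edgeR adjusted p = 0.078), and MTPAP, the mitochondrial poly(A) polymerase, had -0.51 ± 0.20 (edgeR adjusted p = 0.0674). Without empty vector replicate 1 both passed, at 0.61 and -0.60, as did PNPT1 at 0.39. The transcription factors TFB2M and TEFM had 0.06 and 0.43. PNPT1 and SUPV3L1, which form an RNA-degrading complex of mitochondria, had 0.20 and -0.09, and ELAC2, which cuts tRNAs at their 3′ end, had -0.15.

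The nuclear-encoded subunits of complexes I, III, IV and V numbered 75 tested of 79 listed. None was called by edgeR, DESeq2 or limma-voom with the FOXF1 plasmid relative to the empty vector, where 23 had an unadjusted p under 0.05 by edgeR, all higher, as 5.09% of all tested genes were, and the median log2 fold change was 0.10. With the empty vector relative to untreated cells 1, NDUFS1, rose and 38 fell (median -0.25), and with the FOXF1 plasmid relative to untreated cells 0 rose and 25 fell (median -0.16), by the edgeR test, beside 9.37% and 3.89% of all tested genes called lower. UQCR10 of complex III fell by 0.82 ± 0.09 on the log2 scale and COX8A of complex IV by 0.69 ± 0.07 with the empty vector relative to untreated cells (edgeR adjusted p = 8.5e-08 and 4.87e-08). These counts turn on the scaling, since library totals gave 19 higher and 20 lower for the empty vector and 6 higher and 11 lower for the FOXF1 plasmid, each against untreated cells. That scaling moves the median of all genes to 0.29 and 0.16, and no share of all genes called under it is given here. The 12 heavy-strand mitochondrial mRNAs fell under both scalings, with medians of -1.14 by TMM and -0.90 by library totals for the empty vector relative to untreated cells. Of the 4 subunits of complex II, which has no mitochondrially encoded part, SDHC and SDHD rose with the empty vector relative to untreated cells. They rose by 0.33 ± 0.07 and 0.68 ± 0.15 on the log2 scale (edgeR adjusted p = 0.00177 and 0.00106), beside 10.2% of all tested genes called higher. Library totals gave all 4 as higher, with the same shift of all genes.

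Of 12 genes tested from a list of mitochondrial chaperones, proteases and stress-response genes, 6 rose and 2 fell with the empty vector relative to untreated cells, and 5 rose and 0 fell with the FOXF1 plasmid relative to untreated cells, by the edgeR test. Of all tested genes, 10.2% were called higher and 9.37% lower for the empty vector, and 4.63% higher and 3.89% lower for the FOXF1 plasmid. Library totals gave 8 higher and 0 lower of the 12 for the empty vector, and 7 higher and 0 lower for the FOXF1 plasmid. Under them the median of all genes moves to 0.29 for the empty vector and 0.16 for the FOXF1 plasmid, each against untreated cells. No share of all genes called under that scaling is given here. DDIT3, ATF4, CHAC1, TRIB3 and GDF15, which respond to many forms of stress and not to mitochondrial stress alone, were the 5 that rose in both. The chaperones HSPD1, HSPE1 and HSPA9 passed in neither. Among regulators of mitochondrial biogenesis, 8 of 10 could be tested, of which YY1 and MYC rose in both comparisons with untreated cells and PPRC1 fell with the empty vector relative to untreated cells. Library totals gave 4 higher and 0 lower of the 8 for the empty vector and 3 higher and 0 lower for the FOXF1 plasmid. The same shift of all genes goes with these counts.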

How the data were processed

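Per the labels' protocols, total RNA was prepared with a phenol-based reagent, and libraries with a stranded kit for mRNA. Per the submitters' processing notes, reads were aligned to the GRCh38 build with STAR 2.5.2b after bcl2fastq, and counted with HTSeq. The strand setting and annotation were not given in the labels. The authors deposited raw read counts per gene for 9 libraries, without normalization, per the file headers. Members and lists were chosen with earlier results of these data known.

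The whole table of 64253 genes entered edgeR 4.0.16 (R 4.3.3). After filterByExpr (minimum count 10), 16366 genes remained. The fit used TMM scaling, a mean per group over all 9 libraries, the quasi-likelihood F test and Benjamini-Hochberg adjustment, with calls below 0.05. Each SE was obtained by dividing the size of the log2 fold change by the root of its F statistic. A fit with the log of the summed heavy-strand mRNA counts as offset gave ratio changes. DESeq2 1.42.0, limma-voom 3.58.1, other scalings and filters, a replicate block, added pseudogene counts and leaving out each library were alternatives. The fits were tested on simulated counts with planted changes, drawn with a spread pooled over genes. Such counts cannot test calls for genes whose spread between libraries lies above the pooled value. All mRNAs, rRNAs and tested tRNAs are named, as are the 6 pseudogenes with the most counts; of the factors, called ones (up to 6 each way) and 10 fixed ones. CPM uses TMM-scaled library sizes, n = 3 per group. Floors (3 counts) cover counting error only, SDs and SEs also hold variation between libraries, and p-values reflect only how these libraries vary. The SE and p of an edgeR fit are in part pooled over genes. For genes with a wide spread they therefore understate the variation between libraries. MT-TQ is such a gene, with an SE of 0.29 by the fit and 0.51 from the libraries for the empty vector relative to untreated cells. Replicate libraries differed by more than sampling noise (chi-square per degree of freedom 9.17 to 25.28). Gene positions and sequences are from GENCODE release 29, which holds all 37 members.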

Additional observations from a re-analysis of the deposited data

How the results depend on the processing

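The counts of mitochondrial genes called lower against untreated cells stayed within 1.5 times their values, 18 for the empty vector and 15 for the FOXF1 plasmid, under every alternative run, from 16 to 19 and from 13 to 17 when 1 library was left out, and none was called higher there. The count called higher with the FOXF1 plasmid relative to the empty vector, 4, was 7 by limma-voom and 7 with size factors in place of TMM. With no filter on low counts it was 12, and 2 were called lower. It ranged from 0 to 11 when 1 library was left out. The cause was not tested. Limma-voom called 13 of all tested genes in that comparison. No share of all genes called is given here for the other alternatives or for the fits with a library left out. The MT-ND6 ratio for the FOXF1 plasmid relative to the empty vector was -0.77 by DESeq2 (adjusted p = 0.0714), and ranged from -1.18 to -0.57 when 1 library was left out. For the empty vector relative to untreated cells it ranged from 0.81 to 1.22, and for the FOXF1 plasmid relative to untreated cells from -0.19 to 0.42, passing the edgeR test without untreated replicate 1 or FOXF1 plasmid replicate 2 or 3. RPUSD3 and HSD17B10 changed sign under library totals for the empty vector relative to untreated cells, to 0.014 and 0.036 (edgeR adjusted p = 0.871 and 0.621). Over all tested genes, replicate numbers did not pair libraries. Correlations of same-numbered deviations ran from -0.09 to 0.08, and 3 of 9 libraries correlated best with their own number. For MT-ND6, MT-TQ and MT-TP, replicate 1 lay above replicate 3 in each group. Whether replicate numbers pair libraries for these genes was not tested, and the permutation tests on MT-ND6 did not use the numbers. With the replicate block 5 genes were called higher with the FOXF1 plasmid relative to the empty vector, and 18 and 17 lower for the empty vector and the FOXF1 plasmid relative to untreated cells, while the MT-ND6 ratio changed by -0.80, 0.99 and 0.19. Counts of most tRNAs were too low to test small changes.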
